A study of Mus musculus with 12 samples.

Results

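The Notch genes examined here are the receptors Notch1, Notch2, Notch3 and Notch4, the ligands Dll1, Dll4, Jag1 and Jag2, and the target genes Hey1 and Heyl. They were taken by symbol from a table of 32774 genes, and all 10 were found. RNA had been sequenced from whole pieces of adipose vascular anomaly and of normal adipose tissue of C57BL/6 mice. The anomaly mice had the genotype VEC-Cre;SB Transposase; onc3, and the normal mice carried SB Transposase and onc3 without VEC-Cre, so both groups held the transposase and the transposon. VEC-Cre is a Cre recombinase that the VE-cadherin (Cdh5) promoter drives in endothelial cells, and the Sleeping Beauty (SB) transposase moves the onc3 transposon to other places in the genome. There were 8 anomaly libraries from 7 animals, since the pieces from leg and arm of M566 were averaged, and 4 normal libraries from 4 animals. Age and sex were not used here. Of the anomaly animals 5 have subQ in their titles and 2, 18f and M278, have fat, while the 4 normal animals all have fat.

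Notch signalling passes between touching cells. A Delta-like or Jagged ligand on one cell binds a Notch receptor on the next, the receptor is cut by ADAM metalloproteases and then by gamma-secretase, and its freed inner part joins the DNA-binding protein RBPJ to switch on genes such as those of the Hey and Hes families. In blood vessels Notch1 and Notch4 are known as receptors of endothelial cells, Notch3 as a receptor of the mural cells (pericytes and smooth muscle) that wrap them, and Dll4 as the ligand of arterial and sprouting endothelium.

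Values are log2 CPM as deposited, where CPM is the read count of a gene scaled to library size, and the size of 1 read in each library shows a further scaling factor per library, an inference from the values since the method was not given in the sources used here. Library depth ran from 10337258 to 33980694 reads recovered from the table, except for anomaly animal M580 with 953994. Every member had at least 32 reads in every library, so none was near the limit of detection, and the fewest reads were those of Hey1. Adipocyte genes checked the tissue label: all 8 fell, with a median log2 fold change of -4.60, and their summed level spanned 1218 to 19815 CPM in anomalies and 20224 to 56286 CPM in normal tissue. Anomaly animal 18f had the highest adipocyte sum of the anomalies and stood lowest in the group for 7 of the members.

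The column of anomaly animal M605 carries a control name in the first header line of the table and an anomaly name in the second line and in the labels, and it was kept as an anomaly. M605 was the highest anomaly animal for 5 members and 18f the lowest for 7, so values without each of them are given below. In whole tissue, fewer cells of a type and less RNA per cell cannot be told apart.

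Notch4 was the member that differed between the groups. Its level in the 7 anomaly animals had a lowest value of 6.50 (18f), a median of 8.30 and a highest value of 8.93 log2 CPM (M605), against 7.0, 6.33, 6.06 and 5.87 log2 CPM in normal animals M5, M602, M2 and F539. In 6 of 7 anomaly animals Notch4 lay above the highest normal animal, and 18f lay inside the normal range, so the groups overlapped. The mean was 7.87 ± 0.87 in anomalies and 6.31 ± 0.50 log2 CPM in normal tissue (SD, n = 7 and 4), a 2.94-fold rise (log2 fold change 1.56 ± 0.44 SE, 95% interval 0.59 to 2.52, limma adjusted p = 0.0178). Without M605 the log2 fold change was 1.38 (limma adjusted p = 0.0286), without M580 1.48 (0.0336), and without 18f 1.78 (0.00379). The call was lost when normal animal M602 (limma adjusted p = 0.0505) or M2 (0.0563) was left out, at log2 fold changes of 1.56 and 1.47.

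Of the 10 members, Notch4 alone passed an adjusted p of 0.05 as deposited, and it rose. Among all 12955 genes tested, 15.3% passed as higher and 23.2% as lower, so 1 of 10 is near the background share of higher genes. The log2 fold change was above 0 for all 10 members, with a median of 0.62 against -0.10 over all genes tested. Scaled to library totals the 10 values were again above 0. Relative to the mean of 12 endothelial markers every gene's value is lower by 1.05 log2 units, and 2 of the 10 members stayed above 0 (median -0.43, against -1.15 over all genes). Relative to the mean of 11 mural markers every value is lower by 0.84, and 4 of 10 stayed above 0 (median -0.22, against -0.94 over all genes). No member had groups without overlap, which 20.7% of all tested genes had. Each member also had a larger SD among anomaly animals than among normal animals, a description over groups of unequal size.

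**Figure D1:**
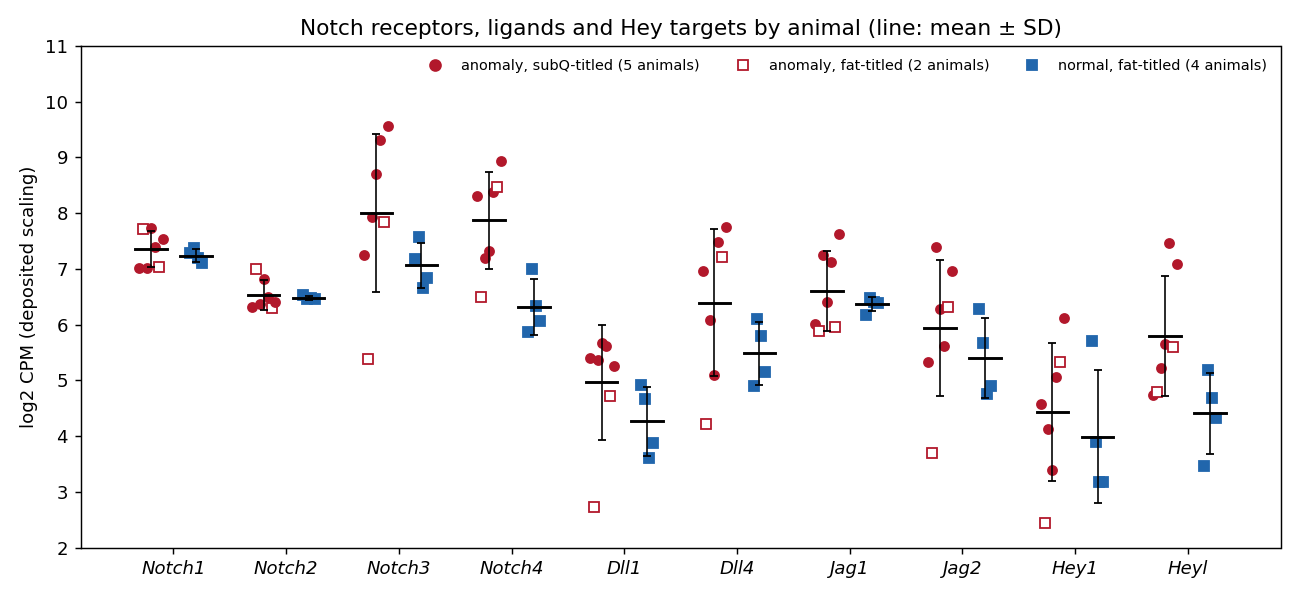
Level of each Notch member in log2 CPM (vertical axis) by animal, with anomalies in red left of normal tissue in blue; bars are the mean ± SD over 7 anomaly and 4 normal animals, and open squares are the fat-titled anomalies 18f and M278. Notch4 lies above the highest normal animal in 6 of 7 anomaly animals, while Notch1 and Notch2 stay within a narrow band.

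The rest of the receptors did not pass the test. Notch3 spanned the widest range of all members, with a lowest value of 5.39 (18f), a median of 7.93 and a highest value of 9.56 log2 CPM (M605) in anomalies, against 7.58, 7.18, 6.84 and 6.66 log2 CPM in normal animals M5, F539, M2 and M602. It was above every normal animal in 5 of 7 anomaly animals and below all of them in 18f. The log2 fold change was 0.93 ± 0.67 (SE, limma adjusted p = 0.290), without 18f it was 1.37 (limma adjusted p = 0.0303), and without M605 it was 0.67 (limma adjusted p = 0.436). Notch1, the broadly expressed receptor, averaged 7.35 ± 0.32 in anomalies and 7.24 ± 0.12 log2 CPM in normal tissue (SD, n = 7 and 4), a difference of 0.11 with a 95% interval of -0.28 to 0.50 (limma adjusted p = 0.633). Notch2, its close relative, averaged 6.53 ± 0.27 in anomalies and 6.48 ± 0.03 log2 CPM in normal tissue, a difference of 0.05 with a 95% interval of -0.28 to 0.38 (limma adjusted p = 0.803). The 4 normal animals held Notch2 within 0.0779 log2 units of each other. Without 18f the differences in Notch1 and Notch2 were 0.05 (limma adjusted p = 0.816) and -0.026 (0.877), and without M605 0.08 (0.754) and 0.07 (0.747). For Notch1 and Notch2 the intervals therefore leave out a change as large as the one measured for Notch4.

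The make-up of the receptor signal can be compared on a scale per exon length, as CPM per kb. On that scale Notch3 had the highest mean of the receptors in both groups, and it was the most abundant receptor in 4 of 7 anomaly animals and 4 of 4 normal animals, the exceptions being M580 and M278 with Notch4 and 18f with Notch1. Its level was 43.7 ± 32.3 in anomalies and 17.1 ± 4.95 CPM per kb in normal tissue (mean ± SD, n = 7 and 4). Notch4 stood at 33.4 ± 17.6 in anomalies and 10.3 ± 3.86 CPM per kb in normal tissue. Notch1 had 11.7 ± 2.60 in anomalies and 10.6 ± 0.877 CPM per kb in normal tissue, and Notch2 had 8.72 ± 1.76 in anomalies and 8.28 ± 0.202 CPM per kb in normal tissue. The levels of Notch3 and Notch4 in anomalies, and of Notch4 and Notch1 in normal tissue, differed by less than their SDs. The sum of the 4 receptors lay above the highest normal animal in 6 of 7 anomaly animals, the exception being 18f with 43.0 CPM per kb, against 40.1 to 59.4 CPM per kb in normal animals. Notch4 made up a median of 29.6% of that sum in anomalies (20.4 to 52.6%), against 22.5% in normal tissue (16.2 to 26.7%). The share of Notch1 had a median of 12.3% in anomalies (7.42 to 34.2%) and of 24.2% in normal tissue (19.7 to 25.0%). That of Notch2 had a median of 9.99% in anomalies (4.48 to 27.5%) and of 19.6% in normal tissue (13.8 to 20.2%). Shares sum to a fixed whole, so a lower share of Notch1 or Notch2 is not a lower level.

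**Figure D2:**
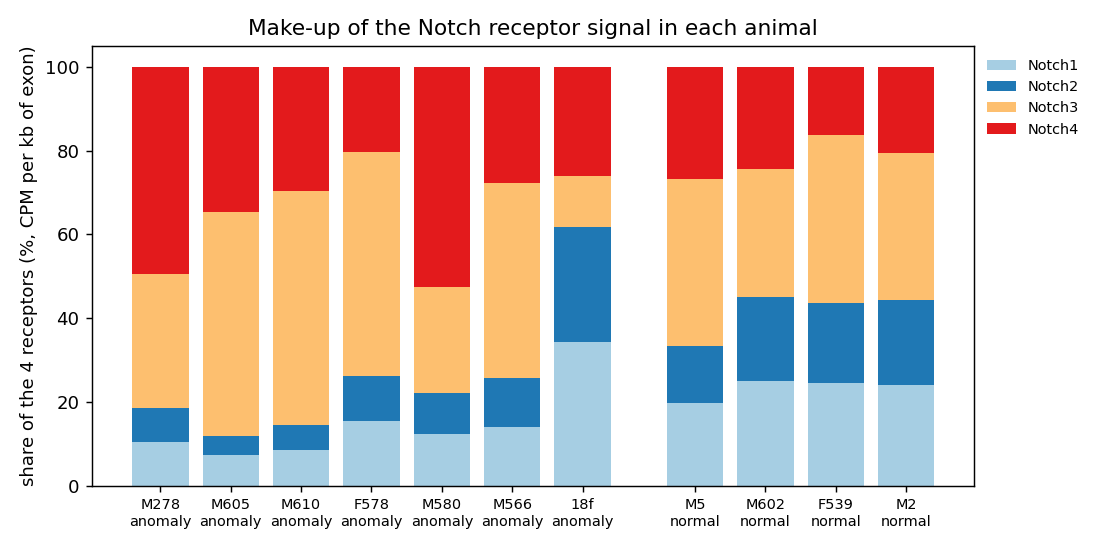
Share of each receptor in the summed CPM per kb of Notch1 to Notch4 (vertical axis, percent) for each animal, with the 7 anomaly animals on the left and the 4 normal animals on the right. Notch4 and Notch3 together fill most of the bar in every animal of both groups except 18f, where Notch1 holds 34.2%.

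Among the ligands none passed the test. Dll4, the endothelial Delta-like ligand, had a lowest value of 4.22 (18f), a median of 6.95 and a highest value of 7.75 log2 CPM (M605) in anomalies, against 6.11, 5.81, 5.15 and 4.89 log2 CPM in normal animals M5, M602, M2 and F539. It lay above all normal animals in 4 of 7 anomaly animals (log2 fold change 0.91 ± 0.64 SE, limma adjusted p = 0.280). The log2 fold change of Dll4 was 1.27 without 18f (limma adjusted p = 0.0601) and 0.68 without M605 (0.418). Dll1, a Delta-like ligand, had a lowest value of 2.74 (18f), a median of 5.37 and a highest value of 5.67 log2 CPM (F578) in anomalies, against 4.91, 4.67, 3.88 and 3.61 log2 CPM in normal animals F539, M5, M2 and M602. The 5 subQ-titled anomalies lay close together, at 5.46 ± 0.17 log2 CPM (SD), and all above the highest normal animal, whereas M278 stood at 4.72. Over all anomalies the log2 fold change of Dll1 was 0.70 ± 0.52 (SE, limma adjusted p = 0.305), without 18f it was 1.07 (limma adjusted p = 0.0113), and without M605 it was 0.65 (limma adjusted p = 0.387).

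Jag1, the Jagged ligand of vessel walls, averaged 6.61 ± 0.71 in anomalies and 6.36 ± 0.13 log2 CPM in normal tissue (SD, n = 7 and 4), a difference of 0.24 ± 0.34 (SE, limma adjusted p = 0.590). In anomalies 3 animals lay above the normal range and 3 below it. The difference in Jag1 was 0.36 without 18f (limma adjusted p = 0.391) and 0.073 without M605 (0.865). Jag2, the second Jagged ligand, averaged 5.94 ± 1.22 in anomalies and 5.40 ± 0.71 log2 CPM in normal tissue, a difference of 0.54 ± 0.61 (SE, limma adjusted p = 0.503). It was 0.91 without 18f (limma adjusted p = 0.115) and 0.37 without M605 (0.665). Its highest anomaly value, 7.39 log2 CPM, belonged to M566, the animal with the highest sum of skin keratinocyte markers, 9952 CPM against a highest sum of 1060 CPM (F539) in normal tissue. F539 was also the highest normal animal for Jag2, at 6.28 log2 CPM. Jag2 is known in epithelia as well as in vessels, and the part of skin in these values was not tested.

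Heyl and Hey1 encode transcriptional repressors that Notch switches on in vessels. Heyl had a lowest value of 4.74 (M580), a median of 5.59 and a highest value of 7.47 log2 CPM (M610) in anomalies, against 5.18, 4.68, 4.32 and 3.46 log2 CPM in normal animals M5, M602, M2 and F539. Its 7 anomaly values all lay above the normal mean of 4.41, and 5 of them above the highest normal animal. The log2 fold change of 1.38 ± 0.55 (SE) missed the threshold (limma adjusted p = 0.0688), and it was 1.17 without M605 (limma adjusted p = 0.110) and 1.55 without 18f (0.0431). Hey1 had a lowest value of 2.44 (18f), a median of 4.57 and a highest value of 6.12 log2 CPM (M605) in anomalies, against 5.71, 3.90, 3.18 and 3.18 log2 CPM in normal animals F539, M5, M602 and M2. Only M605 exceeded the highest normal animal, F539, and the difference was 0.44 ± 0.69 (SE, limma adjusted p = 0.633). Without F539 it was 1.02 (limma adjusted p = 0.251), without 18f 0.78 (0.316) and without M605 0.16 (0.865). F539 also had the highest sum of skin keratinocyte markers among normal animals, 1060 CPM against 8.24 to 19.7 CPM in the other 3. Its sum of mammary and gland epithelium markers, 655 CPM, was the highest of all 11 animals, against 0.549 to 1.39 CPM in the other normal animals. F539 was also the lowest normal animal for Heyl, Notch4, Dll4 and Jag1. The part of skin and gland in its values, high or low, was not tested.

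Leaving out 18f took the number of members that passed to 4, all higher: Notch4, Notch3, Dll1 and Heyl. The share of all tested genes that passed as higher then was 17.7%. With library totals 4 members also passed as higher, namely Notch4 (log2 fold change 1.98, limma adjusted p = 0.00555), Heyl (1.81, 0.0167), Notch1 (0.54, 0.0191) and Notch2 (0.48, 0.0173), but so did 35.2% of all genes. That scaling moved the median of all genes by 0.43 on the log2 scale, and its calls over all genes were 4618 higher and 1583 lower, against 1985 higher and 3001 lower as deposited. The values of Notch1 and Notch2 are close to that shift.

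The leg and arm pieces of M566 differed by more than 1 log2 unit in 4 members, Notch1, Notch4, Hey1 and Dll4. Notch1 was 1.48 log2 units lower in the leg, at 6.28 in the leg and 7.76 log2 CPM in the arm. Notch4 stood at 6.52 in the leg and 7.86 log2 CPM in the arm, so the leg piece by itself lies within the normal range. Hey1 and Dll4 stood at 3.58 and 5.55 in the leg and at 4.69 and 6.61 log2 CPM in the arm, whereas Notch2 and Jag1 differed by less than 0.1. With the leg piece alone for M566 the log2 fold change of Notch4 was 1.46 (limma adjusted p = 0.0394), and with the arm piece alone 1.65 (0.0108).

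The anomalies differed in title word, and this was examined in a fit with 3 groups. In subQ-titled anomalies 3 of 10 members were higher than in normal tissue, against 16.1% of all genes. These were Notch4 (log2 fold change 1.71 ± 0.47 SE, limma adjusted p = 0.0163), Dll1 (1.20 ± 0.39, 0.0316) and Heyl (1.62 ± 0.58, 0.0458). Notch3 was at 1.49 ± 0.57 (limma adjusted p = 0.0593). Heyl lost its call with no filter (limma adjusted p = 0.0742), without M605 (0.0948) and without F539 (0.109), among others. It kept the call with limma-voom (adjusted p = 0.0281) and in limma with library totals (0.0101). In a fit of subQ-titled anomalies and normal tissue alone, Notch4, Dll1 and Notch3 passed and Heyl did not. With 1 animal left out, between 1 and 4 members passed in that contrast, and Notch4 was among them each time. Without M602, 1 member passed, beside 1326 of 13013 genes that passed as higher. Without M580, 4 members passed, beside 2077 of 12915 genes. In fat-titled anomalies 0 of 10 members passed in limma, while 6.76% of all genes passed as higher. At an unadjusted limma p under 0.05 there were 0 members, beside 3818 of 12955 genes in either direction. With limma-voom 0 members passed and 1 was under 0.05 unadjusted, beside 4169 of 12955 genes. Notch4 stood at 1.17 ± 0.61 (SE, limma adjusted p = 0.232) in that contrast, from 6.50 and 8.46 log2 CPM in the 2 animals 18f and M278. The difference between subQ-titled and fat-titled anomalies was itself tested: 0 of 10 members passed in limma, and 0.0386% of all genes did. With limma-voom 0 members passed as well. In each fit 3 members had an unadjusted p under 0.05, beside 1921 of 12955 genes in limma and 2088 of 12955 with limma-voom. Without M278, when 18f was the lone fat-titled anomaly, the difference in Dll1 was 2.73 log2 units. With all animals, the members with the largest such differences were Notch3 (1.93 ± 0.71 SE, limma adjusted p = 0.279) and Dll1 (1.73 ± 0.49, 0.220), both with 18f far below the rest. Without 18f, when M278 was the lone fat-titled anomaly, these differences were 0.71 for Notch3 and 0.74 for Dll1. Adjusted p values are not given for fits with 1 fat-titled animal. No normal animal was titled subQ, so site and lesion cannot be told apart in the subQ contrast. Skin keratinocyte markers also varied widely between animals, and the title words overlapped. Their sums were 9952, 1585, 1021, 795 and 7.67 CPM in the subQ-titled anomalies M566, F578, M580, M605 and M610, against 15.0 and 5.99 CPM in the fat-titled anomalies 18f and M278 and 8.24 to 1060 CPM in normal animals. Their part in the subQ contrast was not tested.

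Markers of vessel cells were measured beside the members, and the endothelial and the mural marker means each lay above the highest normal animal in 5 of 7 anomaly animals. Of 12 endothelial markers 6 rose and 0 fell, with a median log2 fold change of 1.25, and their summed level spanned 1626 to 6156 CPM in anomalies and 1393 to 2672 CPM in normal tissue. Of 11 mural markers 2 rose, Pdgfrb and Tagln, and 0 fell, with a median of 0.81 and sums of 641 to 8816 CPM in anomalies and 1440 to 2336 CPM in normal tissue. Among 7 arterial markers tested 1 rose, the transcription factor gene Sox17 (log2 fold change 1.06, limma adjusted p = 0.0459). The counts for mural and arterial markers are near the 15.3% of all genes that were higher. No marker of the 3 lists was at 0 in every library, and 18f had the lowest anomaly sum in each. The part that these markers have in the Notch values was not tested, beyond subtracting their mean.

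**Figure D3:**
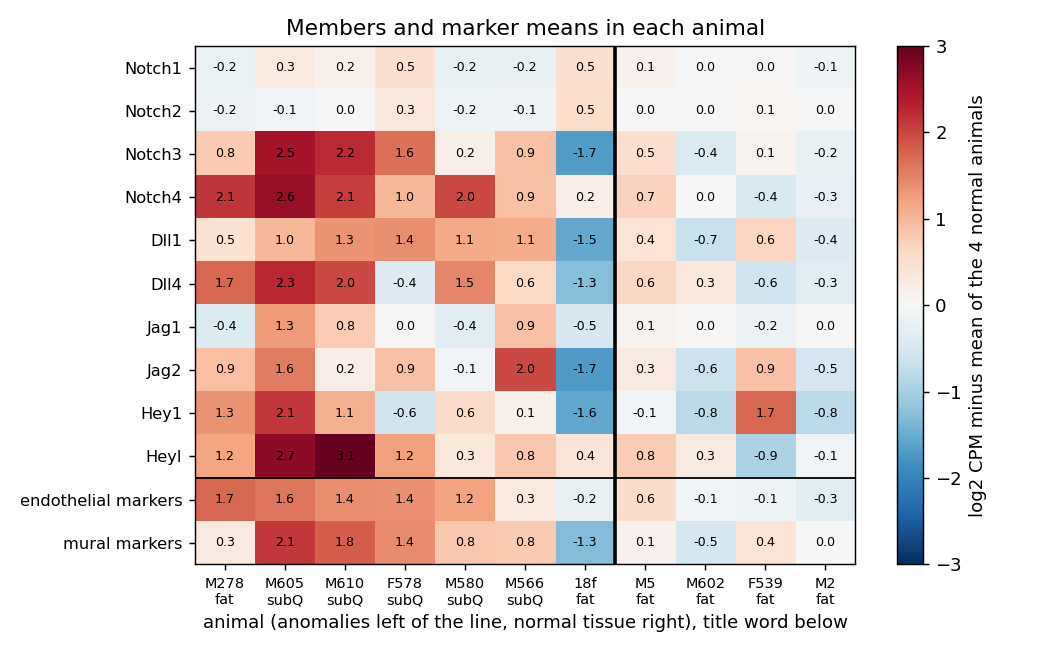
Each member's log2 CPM minus the mean of the 4 normal animals (colour and printed value) for 7 anomaly animals left of the line and 4 normal animals right of it, with the means of the 12 endothelial and 11 mural markers in the last rows. Anomaly animals are ordered by endothelial marker mean; 18f is below the normal mean for both marker rows and for Notch3, Dll1, Dll4, Jag1, Jag2 and Hey1.

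After the mean of the 12 endothelial markers was subtracted in each animal, the log2 fold change of Notch4 was 0.50 ± 0.45 (SE, limma adjusted p = 0.335), and after subtracting the mean of the 11 mural markers it was 0.71 ± 0.73 (0.464). In neither scale did any member pass in limma, while 2.13% of all genes passed as higher relative to endothelium. Relative to endothelium 1 member had an unadjusted limma p under 0.05, and relative to mural cells 0 did. The share of all genes under that unadjusted value was not counted. Notch1 and Notch2 then stood at -0.94 (limma adjusted p = 0.0972) and -1.002 (0.0817) relative to endothelium, near the median of all genes on that scale, -1.15. Heyl stayed above 0 at 0.33, while Notch3 was at -0.12 and Dll4 at -0.15.

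**Figure D4:**
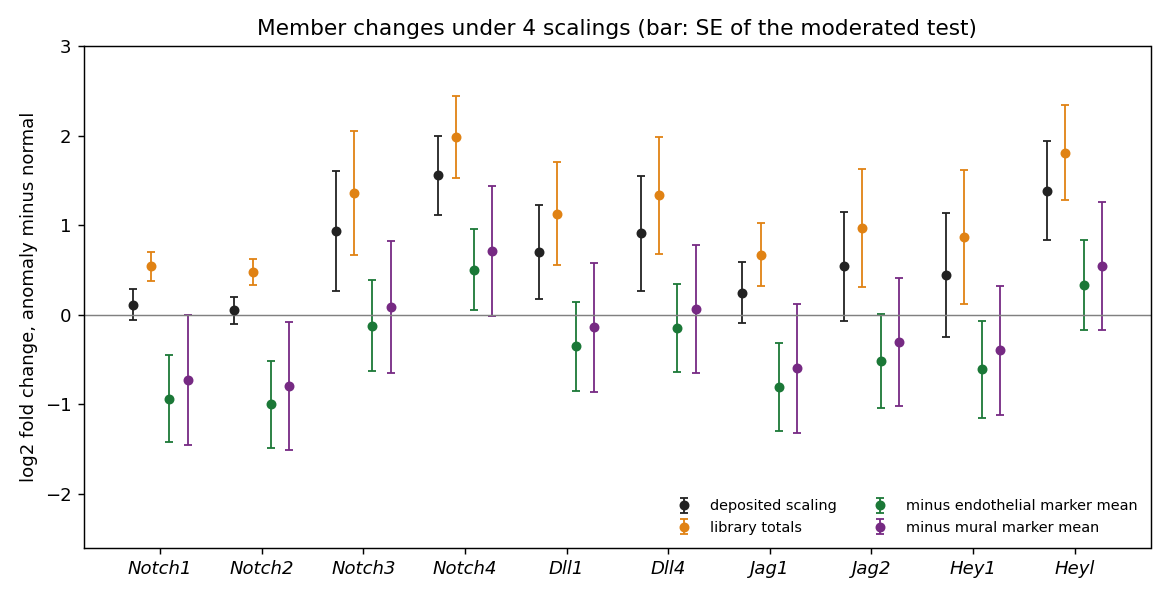
Log2 fold change, anomaly minus normal (vertical axis), of each member as deposited, with library totals, and relative to the endothelial and mural marker means; bars are the SE of the limma test on 7 anomaly and 4 normal animals. Notch4 is at 1.56 as deposited and at 0.50 relative to endothelial markers, and Notch1 and Notch2 lie below 0 on both marker scales.

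Within the groups the members followed different marker means. The deviations of each animal from its own group mean were correlated over the 11 animals, which contribute 1 averaged library each and share 2 group means, and these values are descriptions. Notch4 followed the endothelial marker mean (Pearson r = 0.874, Spearman rho = 0.873), and r was 0.761 without 18f and M605, the animals farthest from the median. Notch3 followed the mural marker mean (r = 0.951, rho = 0.873, and r = 0.802 without 18f and M605). Each also moved with the other mean when all animals were kept. Notch4 had r = 0.608 with the mural mean and Notch3 r = 0.752 with the endothelial mean. Without 18f and M605 these were -0.129 and 0.346. Dll1 moved with the mural mean (r = 0.880, rho = 0.664, and r = 0.548 without its 2 farthest animals, 18f and M602) and against the summed adipocyte markers (r = -0.839, rho = -0.764, and r = -0.680 without the same animals).

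The pair of members most alike was Notch4 and Dll4 (r = 0.951, rho = 0.909, and r = 0.894 without 18f and M605). Notch1 and Notch2 came next (r = 0.829, rho = 0.727, and r = 0.800 without M580 and M566). Among all tested genes Notch4 was most like 4930578C19Rik (r = 0.966) and Tie1, an endothelial receptor tyrosine kinase gene (r = 0.956). The genes most like Notch3 were Foxs1, a forkhead transcription factor gene (r = 0.971), and Cacna1c, which encodes a voltage-gated calcium channel subunit of smooth muscle (r = 0.968). For Dll4 Serpini1 was the most alike (r = 0.964), for Heyl Abi2 (r = 0.956) and Slc14a1 (r = 0.951) were, and for Hey1 Tm4sf1 (r = 0.943) and Mmp15 (r = 0.941). Dll1 was nearest to 9930012K11Rik (r = 0.947) and Adra2a (r = 0.938), Jag1 to Tnk2 (r = 0.944) and H1fx (r = 0.917), and Jag2 to Stap2 (r = 0.929) and Arhgef5 (r = 0.926). Notch1 was nearest to Brf2 (r = 0.931) and Fbln2 (r = 0.928), and Notch2 to Dnajc25 (r = 0.931) and Hspa8 (r = 0.926). These genes were picked for the highest r among 12954 others.

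**Figure D5:**
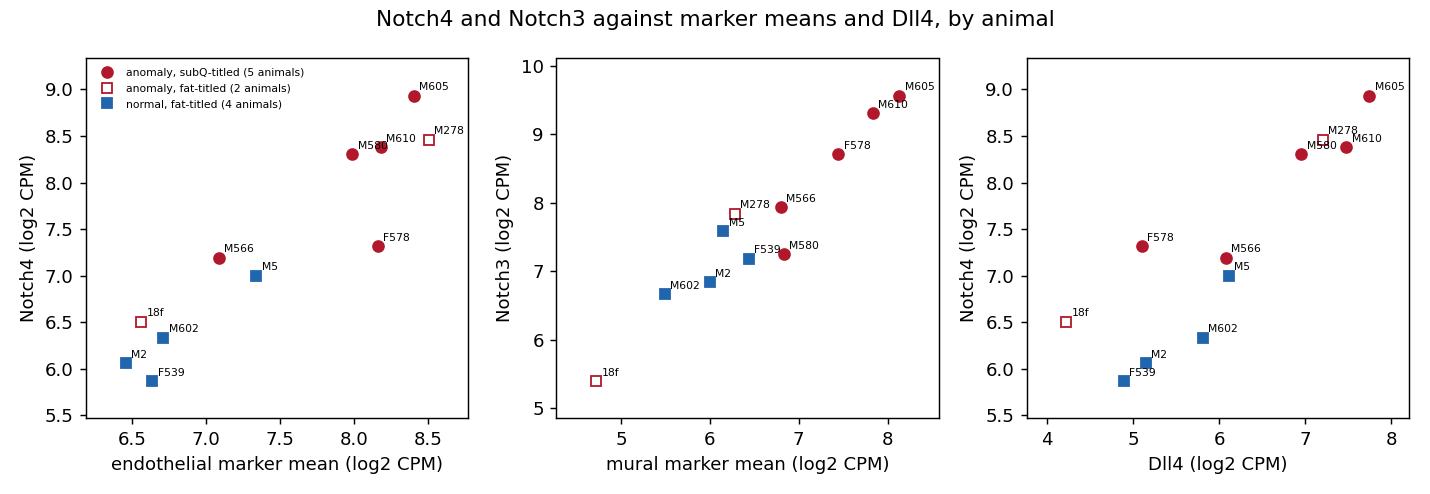
Level of Notch4 against the endothelial marker mean, of Notch3 against the mural marker mean, and of Notch4 against Dll4 (all axes log2 CPM), with 1 point per animal. Anomalies are red and normal animals blue; in the panel of Notch3, 18f lies lowest on both axes and M605 highest.

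Notch4 and Dll4, the pair that moved most alike, are shown by their promoters, the 250 bases before the RefSeq start on GRCm38.p6. Capitals mark GGAA, the core of ETS factor motifs, or its reverse complement TTCC on the printed strand. Both strands were searched.
Notch4 (chr17:34564045-34564294, plus strand): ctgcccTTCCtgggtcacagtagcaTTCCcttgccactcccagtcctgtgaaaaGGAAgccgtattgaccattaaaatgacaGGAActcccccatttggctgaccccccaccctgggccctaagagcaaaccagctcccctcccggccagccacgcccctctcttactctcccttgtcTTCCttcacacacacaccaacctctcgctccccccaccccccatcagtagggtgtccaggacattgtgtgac
Dll4 (chr2:119325534-119325783, plus strand): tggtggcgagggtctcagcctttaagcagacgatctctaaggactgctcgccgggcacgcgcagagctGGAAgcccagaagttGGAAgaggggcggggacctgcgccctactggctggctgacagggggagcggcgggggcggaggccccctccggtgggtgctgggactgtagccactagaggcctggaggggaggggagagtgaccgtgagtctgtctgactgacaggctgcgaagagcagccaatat
The Notch4 window holds 5 GGAA cores and no GC box (GGGCGG), and the Dll4 window 2 GGAA cores and 2 GC boxes. GGAA is present in 93.4% of 32851 promoter windows of this length, with a median of 3 copies, and GGGCGG in 32.7%. The windows also differ in base make-up: Notch4 has 58.4% G and C with 4 CpG, and Dll4 65.6% with 14 CpG, against medians of 52.4% and 6 CpG over all windows. Promoters were at hand for 8 members in 9 windows, Dll1 having 2 of them; Hey1 and Heyl had none in the table used. The RBPJ core TGGGAA, which contains GGAA, was found in 0 of these 9 windows and in 21.6% of all windows, and the Hey and Hes E-box CACGTG in 0 of 9 and in 6.02%. A match is only a match of letters, and these windows hold no more than the nearest bases before each start.

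By position, Notch4 lies on chromosome 17 from 34564268 to 34588503 (plus strand, GENCODE vM21 on GRCm38), and none of its exons overlap those of another gene. Notch3 (17, 32120820 to 32166852, minus strand) and Dll1 (17, 15367354 to 15376872, minus strand) are on the same chromosome. The exons of Notch1, Notch2, Notch3, Dll1 and Dll4 overlap those of another annotated gene, and the kit did not mark strand. Reads in the shared bases therefore cannot be assigned by strand. How such reads were counted, and the size of the overlaps, were not examined here. Notch1 overlaps 0610009E02Rik and Gm13568, Notch2 Gm42820, Notch3 Gm17276, Dll1 A930024N18Rik, and Dll4 Gm14207. Jag1, Jag2, Hey1 and Heyl had no such overlap.

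The remaining pathway was read from a list of 50 other Notch genes, of which 46 were tested. In it 3 rose and 6 fell, 19.6% of the list against 38.5% of all tested genes, with a median log2 fold change of 0.03. By direction, 15.3% of all tested genes passed as higher and 23.2% as lower, so both counts are below the background. Both sheddase genes whose products cut the bound receptor rose as deposited, although relative to the endothelial marker mean Adam17 was at -0.073 and Adam10 at -0.15. Adam17 averaged 6.67 ± 0.25 in anomalies and 5.69 ± 0.20 log2 CPM in normal tissue (SD, n = 7 and 4, log2 fold change 0.98 ± 0.16 SE, limma adjusted p = 0.00150), and Adam10 averaged 7.31 ± 0.43 in anomalies and 6.40 ± 0.34 log2 CPM in normal tissue (0.91 ± 0.24, 0.0139). Neurl1b, an E3 ligase gene of ligand uptake, rose by 1.07 ± 0.37 (limma adjusted p = 0.0396), a call lost in 14 of 28 alternatives. The gamma-secretase genes Psen2, Ncstn, Aph1a, Aph1c and Psenen did not pass.

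The genes that fell, 6 of 46 tested, belong to several steps of the pathway, and their share is below the 23.2% of all genes that were lower. The fringe genes Mfng and Rfng, which encode glycosyltransferases that modify Notch receptors, had log2 fold changes of -1.43 ± 0.37 (SE, limma adjusted p = 0.0116) and -0.87 ± 0.19 (0.00520), while Lfng, the third fringe gene, stood at -0.0033 ± 0.216 (0.991). Dtx2, a Deltex E3 ligase gene, changed by -1.68 ± 0.24 (limma adjusted p = 0.00108). In the nuclear complex the acetyltransferase gene Kat2b changed by -1.21 ± 0.17 (limma adjusted p = 0.00104) and the corepressor gene Ncor1 by -1.04 ± 0.21 (0.00383), whereas Rbpj was at 0.16 ± 0.21 (0.565). Aph1b, a gamma-secretase subunit gene with the near-identical copy Aph1c, changed by -1.24 ± 0.26 (limma adjusted p = 0.00487). How reads that match both copies were counted was not examined here. With library totals the list showed 19 of 46 genes higher and 5 lower, a share of higher genes near the 35.2% of all genes at that scaling.

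The other genes listed here as Notch targets did not pass the test as deposited. Whether Notch induces each of them in this tissue was not tested. Nrarp, a feedback regulator that Notch induces, averaged 4.23 ± 1.08 in anomalies and 2.88 ± 0.71 log2 CPM in normal tissue (SD, n = 7 and 4), a difference of 1.35 ± 0.56 (SE, limma adjusted p = 0.0754). Hes1, the widely used Notch target, averaged 5.37 ± 0.94 in anomalies and 4.43 ± 0.43 log2 CPM in normal tissue (0.95 ± 0.46, 0.123). Hey2, the third Hey gene, stood at 0.72 ± 0.73 (limma adjusted p = 0.456), and Hes6 at 0.34 ± 0.18 (0.144). Among 28 alternatives Nrarp passed in 4, Hes1 in 3 and Hes6 in 1. Their lowest limma adjusted p values there were 0.00175, 0.00262 and 0.00497, and that of Hey2 was 0.162. Hes5 was below the filter on low values, as were the ligand genes Dll3, Dlk2 and Dner.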

How the data were processed

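RNA was measured in 8 anomaly and 4 normal libraries. The table deposited by the authors holds log2 CPM on the log2 scale with a lowest value of -6.97; the normalization function was not given in the sources used here. The submitters' processing notes name STAR, limma, mm10 and GRCm38. The kit selected poly-A RNA and kept no strand, per the labels' protocols. Linear values were whole multiples of 1 step per library (100% within 0.1 of a whole number), which were read as recovered reads; intervals from these reads would cover counting error only.

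Animals came from the titles, and the series text counts 8 anomaly animals where the titles give 7. The labels do not say more about how animals were bred or sampled. A gene was tested when it averaged 1 log2 CPM or more across the 11 animals, and the fit was made with limma 3.58.1 (statmod 1.5.0, R 4.3.3; trend and robust moderation, two-sided, Benjamini-Hochberg over all tested genes, threshold 0.05), after a test on simulated data. Every adjusted p is from limma; log2 fold changes are anomaly minus normal. The members, gene lists and tests were chosen with earlier results of these data known. All 10 members are named; of the pathway list, genes past the threshold and targets are named, and for each member the 2 genes most like it. Some genes that these rules select are not reported here. Alternatives covered scaling, limma-voom on recovered reads, filters, pseudocounts, thresholds, pieces of M566, single animals left out, marker-relative values and title words. Promoters are from RefSeq and gene coordinates from GENCODE. Proteins were not used here.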

Additional observations from a re-analysis of the deposited data

Results flagged for a closer look

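Of 20 member-by-group sets of animals examined for a single distant value, 1 stood out, and the rule used flags about 1 in 20 sets by chance. The sets are not independent, since they share animals. Dll1 in anomaly animal 18f was at 2.74 log2 CPM, and its gap to the next anomaly animal was 0.676 of the group's range. The other 6 anomaly animals lay between 4.72 and 5.67 log2 CPM. In the same animal the summed mural markers were at 641 CPM and the summed adipocyte markers at 19815 CPM, the lowest and the highest of the anomalies. Their part in the Dll1 value was not tested.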

How the results depend on the processing

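The direction of Notch4 and of Heyl held in all 28 alternatives, and Notch4 kept its call in 22 of them. It lost the call without M602, without M2, relative to either marker mean, at an adjusted p of 0.01 and in fat-titled anomalies alone, where 2 animals carry the estimate. Leaving out 1 animal gave 1.38 to 1.78 for Notch4. The cause of the changes below was not tested. M580 holds 953994 reads, which limits its low values.

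The count of members past the threshold, 1 as deposited, was 4 with library totals and 0 relative to endothelial or to mural markers. It was 2 at an adjusted p of 0.10, 0 at 0.01, and 0 to 4 with 1 animal left out. In subQ-titled anomalies alone it was 3 (Notch4, Dll1 and Notch3, without Heyl), and in fat-titled anomalies alone 0. The pathway list count, 9, was 24 with library totals, 20 and 4 relative to endothelial and mural markers, 15 at an adjusted p of 0.10, 17 in subQ-titled and 4 in fat-titled anomalies alone, and 7 to 14 with 1 animal left out. Over all genes, 4986 of 12955 became 6201 of 13122 with library totals, and 6338 and 1706 relative to endothelial and mural markers. It was 6220 at an adjusted p of 0.10, of which 2551 were higher, and 2502 at 0.01. In subQ-titled anomalies alone it was 5538 of 13006, of which 2127 were higher, and in fat-titled anomalies alone 1518 of 12735. With 1 animal left out it was 3028 (without M602) to 5817 (without 18f). Leaving out 1 animal gave 3619 (without M602) to 5781 for the 5458 genes of the subQ-titled contrast and 141 (without M278) to 1841 for the 1456 genes of the fat-titled contrast, in which library totals gave 2556. The 5 genes between subQ-titled and fat-titled anomalies were 49 with no filter, 2 with log2(CPM + 1), and 0 to 208 (without M278) with 1 animal left out.

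Subtracting a marker mean lowers every gene's log2 fold change by 1 constant, so the changes of sign that follow restate it. Relative to the endothelial marker mean the log2 fold change turned below 0 for Notch1 (-0.94), Notch2 (-1.002), Notch3 (-0.12), Dll1 (-0.35), Dll4 (-0.15), Jag1 (-0.81), Jag2 (-0.51), Hey1 (-0.61), Adam10 (-0.15), Adam17 (-0.073), Hes1 (-0.11), Hey2 (-0.34) and Hes6 (-0.71). Relative to the mural marker mean it did so for Notch1 (-0.73), Notch2 (-0.79), Dll1 (-0.14), Jag1 (-0.60), Jag2 (-0.30), Hey1 (-0.40), Hey2 (-0.13) and Hes6 (-0.50). In fat-titled anomalies alone it did so for Notch3 (-0.45), Dll1 (-0.54), Jag1 (-0.44), Jag2 (-0.40) and Hey1 (-0.11). Notch2 ranged from -0.026 (without 18f) to 0.091 with 1 animal left out. No paired analysis was possible because the labels give the groups no shared replicate numbers.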
